A study of Homo sapiens with 18 samples.

Results

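The AP-1 and immediate early genes were followed over 3 bladder cancer cell lines and 6 cellular variants of each. The 10 genes were taken by symbol, FOS, FOSB, FOSL1, FOSL2, JUN, JUNB, JUND, ATF3, EGR1 and IER3, out of 16575 genes in the expression table, and all 10 passed the filter of at least 5 CPM, a read count scaled to the size of its library, in at least 1 library, which kept 13022 genes. RT-112, HT-1376 and CAL-29 are established lines of urinary bladder carcinoma. Each line was carried through a first and a second stable lentiviral transduction with antibiotic selection. The control KK received blank virus both times. WK received a WWOX virus and then blank virus, KA and KC blank virus and then a virus for AP-2α or AP-2γ, and WA and WC the WWOX virus and then AP-2α or AP-2γ. Every library therefore comes from cells that went through both transductions and both selections. RT-112 was grown in RPMI-1640, HT-1376 and CAL-29 in DMEM, and the share of serum also differed with the line, so line and medium cannot be told apart. There was 1 library for each line and variant, 18 in all, and the 3 lines are the only replicates of a variant.

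AP-1 is a dimer of basic leucine zipper proteins. A FOS family protein pairs with a JUN family protein, JUN proteins can also pair among themselves, and the dimer binds the TGANTCA sequence of target promoters and enhancers. FOS, FOSB, JUN, JUNB, EGR1 and IER3 are classed as immediate early genes, since serum, growth factors or stress raise their transcripts within minutes without new protein, through SRF and ELK factors downstream of the ERK, JNK and p38 kinases. FOSL1 follows later and depends on ERK signalling, JUND is present in resting cells, and ATF3 is the stress-induced partner of JUN proteins. In the epithelium of the bladder these factors are known for their part in growth, wound closure and invasion.

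CAGE reads the capped 5′ end of an RNA, so a gene is counted from its capped ends and 1 RNA gives 1 tag whatever its length. CPM of different genes can thus be set side by side without scaling to length. The starts of the members named most below are shown with the 250 bases before the RefSeq start of the gene (GRCh38.p14, 5′ to 3′ along the gene), because CAGE counts tags at gene starts. The deposited values are summed per gene, so which start of a gene was counted is not known. The sequences lie at chr19:12791236-12791485 (plus strand) for JUNB, chr14:75278578-75278827 (plus strand) for FOS, chr19:45467746-45467995 (plus strand) for FOSB and chr5:138465229-138465478 (plus strand) for EGR1. JUNB had the highest level of the 10 genes, FOS and FOSB varied together most closely, and EGR1 differed most between lines. Capitals mark TGACG or its reverse complement CGTCA, the TATA box TATAAA, and in EGR1 the CArG boxes bound by SRF.
JUNB: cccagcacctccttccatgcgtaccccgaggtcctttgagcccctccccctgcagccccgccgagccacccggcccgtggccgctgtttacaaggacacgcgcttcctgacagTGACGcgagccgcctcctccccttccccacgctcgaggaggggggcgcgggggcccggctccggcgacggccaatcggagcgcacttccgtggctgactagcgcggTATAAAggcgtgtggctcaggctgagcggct
FOS: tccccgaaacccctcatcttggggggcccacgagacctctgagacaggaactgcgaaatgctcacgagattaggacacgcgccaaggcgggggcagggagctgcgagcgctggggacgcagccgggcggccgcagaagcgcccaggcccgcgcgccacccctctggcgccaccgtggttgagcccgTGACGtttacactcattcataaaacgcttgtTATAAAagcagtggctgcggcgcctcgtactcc
FOSB: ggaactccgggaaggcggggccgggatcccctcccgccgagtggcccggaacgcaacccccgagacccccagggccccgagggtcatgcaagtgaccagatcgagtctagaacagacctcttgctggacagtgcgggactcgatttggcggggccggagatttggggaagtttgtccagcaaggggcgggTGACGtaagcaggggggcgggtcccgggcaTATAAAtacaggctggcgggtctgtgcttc
EGR1: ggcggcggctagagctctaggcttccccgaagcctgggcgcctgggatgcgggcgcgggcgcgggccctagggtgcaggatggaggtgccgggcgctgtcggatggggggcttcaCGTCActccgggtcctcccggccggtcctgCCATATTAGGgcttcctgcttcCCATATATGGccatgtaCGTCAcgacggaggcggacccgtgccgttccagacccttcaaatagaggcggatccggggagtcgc
RefSeq promoters were found for 8 of the 10 members, and FOSL1 and IER3 had no entry. Searched on both strands over the 250 bases, TGACG was present in 7 of the 8 members and in 21.2% of all 35116 promoters. TATAAA was present in 4 of the 8 and in 10.7% of all. In FOS, FOSB and JUNB it began 33, 30 and 31 bases before the start, and in ATF3 230 bases before the inner of its 2 starts. A member was counted if any of its promoters held the letters, while the shares of all are per promoter. GGGCGG was present in 6 (42.6% of all) and the AP-2 letters GCCNNNGGC in JUNB alone (19.8% of all). The complete CRE TGACGTCA, which contains TGACG and its reverse complement overlapping, was found in JUND (1.65% of all), and the CArG box in EGR1 (1.16% of all). Neither TGANTCA, with any base at N (6.57% of all), nor CCGGAAGT (3.42% of all) was found in any of the 8. Only these exact letters were searched, and only over the 250 bases. Variant sites, and sites further upstream of FOS or any other member, would be missed, so an absence here does not show that a gene lacks the site.

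The libraries held 13357102 to 17958572 reads on genes, and 1 read was worth 0.0526 to 0.0709 CPM, so that a count of 0 would allow up to 0.158 to 0.213 CPM (3 reads, counting error only). The 9 epithelial markers summed to between 4953.7 and 25991 CPM and none was at 0, while 5 of 10 markers of other cell types were in the table and summed to 5.59 to 60.0 CPM. The library labelled CAL-29 KC stood apart. Its median correlation over genes was 0.940 with the HT-1376 libraries and 0.741 with the other CAL-29 libraries, whereas every other library had 0.912 to 0.988 with its own line and 0.687 to 0.834 with another line. For 8 members its value lay in the range of the HT-1376 libraries, and for 4 in that of CAL-29. It was left out of the comparisons for WWOX, the AP-2 factors and the lines, and its values are given apart. TFAP2A was higher in 5 of the 6 pairs that differed by AP-2α and TFAP2C in 5 of the 5 for AP-2γ, and WWOX was higher in 3 of 8 pairs (0.713 to 2.43-fold). A transcript driven from a viral vector can begin in vector sequence, so a CAGE tag at these genes does not check the labels, and the groups below follow the labels.

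Among the 10 members, JUNB had the highest CPM in every library, with a median of 2202 CPM in RT-112 (n = 6), 1916 CPM in HT-1376 (n = 6) and 1236 CPM in CAL-29 (n = 5). JUN, JUND, FOSL2 and IER3 came next by their medians in RT-112 and HT-1376, in an order that changed with the line, and IER3 reached a median of 843 CPM in HT-1376. In CAL-29 the median of EGR1, 179 CPM, was above those of JUND (127 CPM) and IER3 (177 CPM). The lowest value was FOSB in HT-1376 KK, 0.26 CPM.

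**Figure D1:**
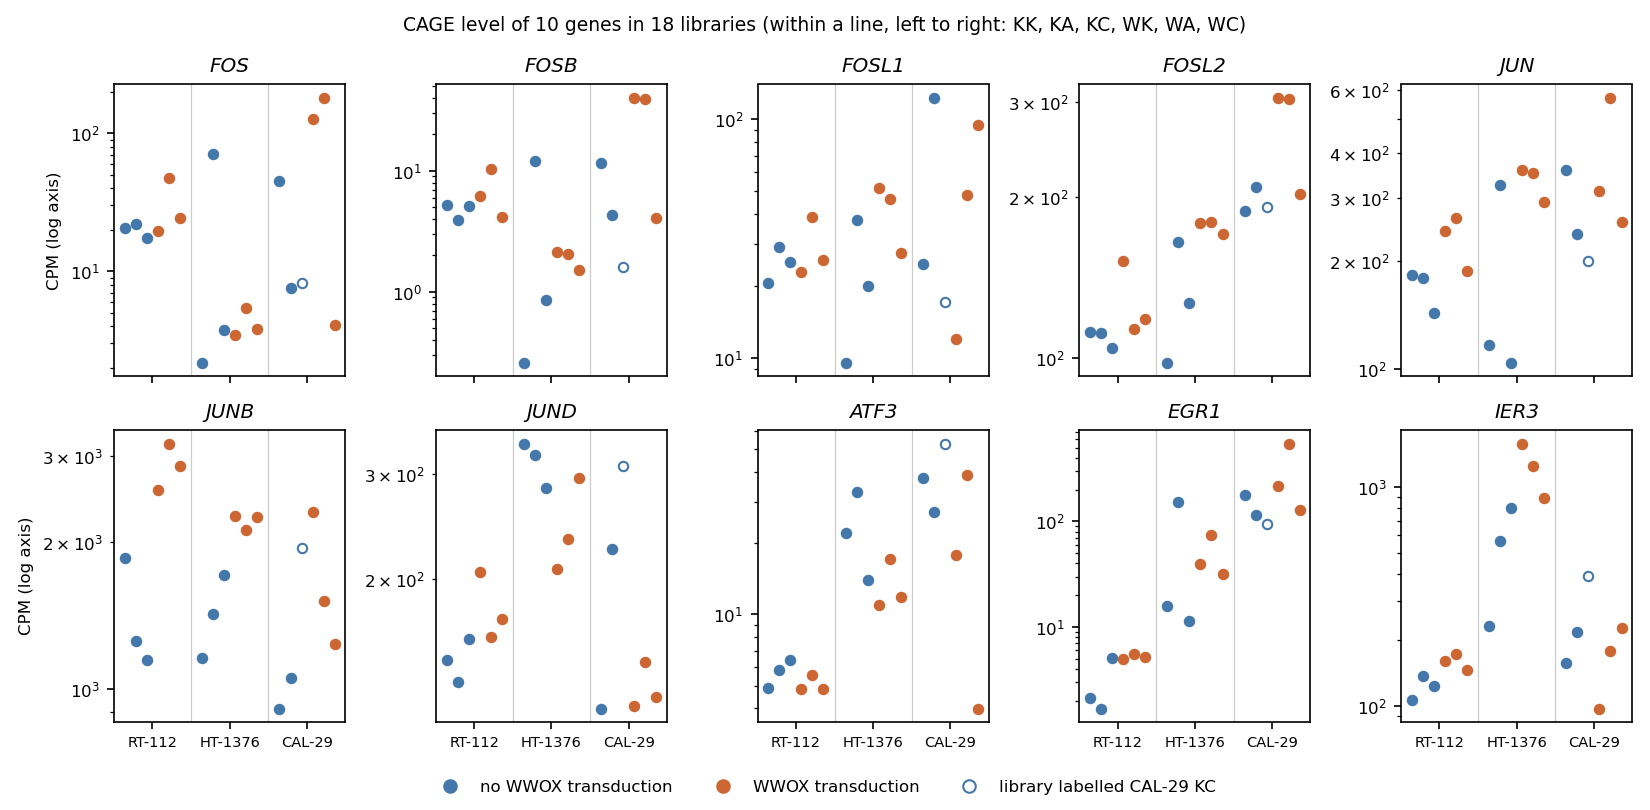
CPM (log axis, each gene with its own range) of the 10 members in the 18 libraries, by cell line and, within a line, by variant from KK to WC. JUNB in the libraries with WWOX transduction lies above the libraries without it in each line, apart from the library labelled CAL-29 KC at 1942 CPM, and FOS in HT-1376 stays at or below 5.43 CPM except for 70.9 CPM in KA.

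Within the JUN family, JUNB made up 84.4% ± 4.0 (SD, n = 6) of the summed CPM of JUN, JUNB and JUND for RT-112, 76.6% ± 5.1 (n = 6) for HT-1376 and 72.7% ± 7.5 (n = 5) for CAL-29. JUN took 8.49% ± 2.0, 10.7% ± 4.0 and 18.9% ± 6.5 in the same order. JUND took 7.14% ± 2.3, 12.7% ± 5.0 and 8.46% ± 3.9. The JUN family summed to 2502 ± 899.9 CPM for RT-112, 2360.0 ± 505 CPM for HT-1376 and 1901 ± 570.1 CPM for CAL-29, so its total overlapped between the lines.

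Within the FOS family, FOSL2 was the largest member in every library. It made up 67.4% ± 7.2 for RT-112, 77.9% ± 11 for HT-1376 and 62.7% ± 6.3 for CAL-29, and 87.7% in the library labelled CAL-29 KC. FOSL1, which lacks the strong activation domain of FOS, took 15.3% ± 2.7, 15.0% ± 4.9 and 17.3% ± 14.9. FOS itself took 14.1% ± 4.5 for RT-112, 5.83% ± 9.3 for HT-1376 and 15.6% ± 13.7 for CAL-29. In the latter 2 lines the SD was close to or above the mean. FOS ranged from 1.46% to 24.8% in HT-1376, where the highest was KA, and from 1.33% to 31.6% in CAL-29, where the highest was WA. The FOS family as a whole reached 177 ± 23.3 CPM, 203 ± 63.4 CPM and 395 ± 129 CPM in the lines taken in that order. These shares are descriptions and were not tested.

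**Figure D2:**
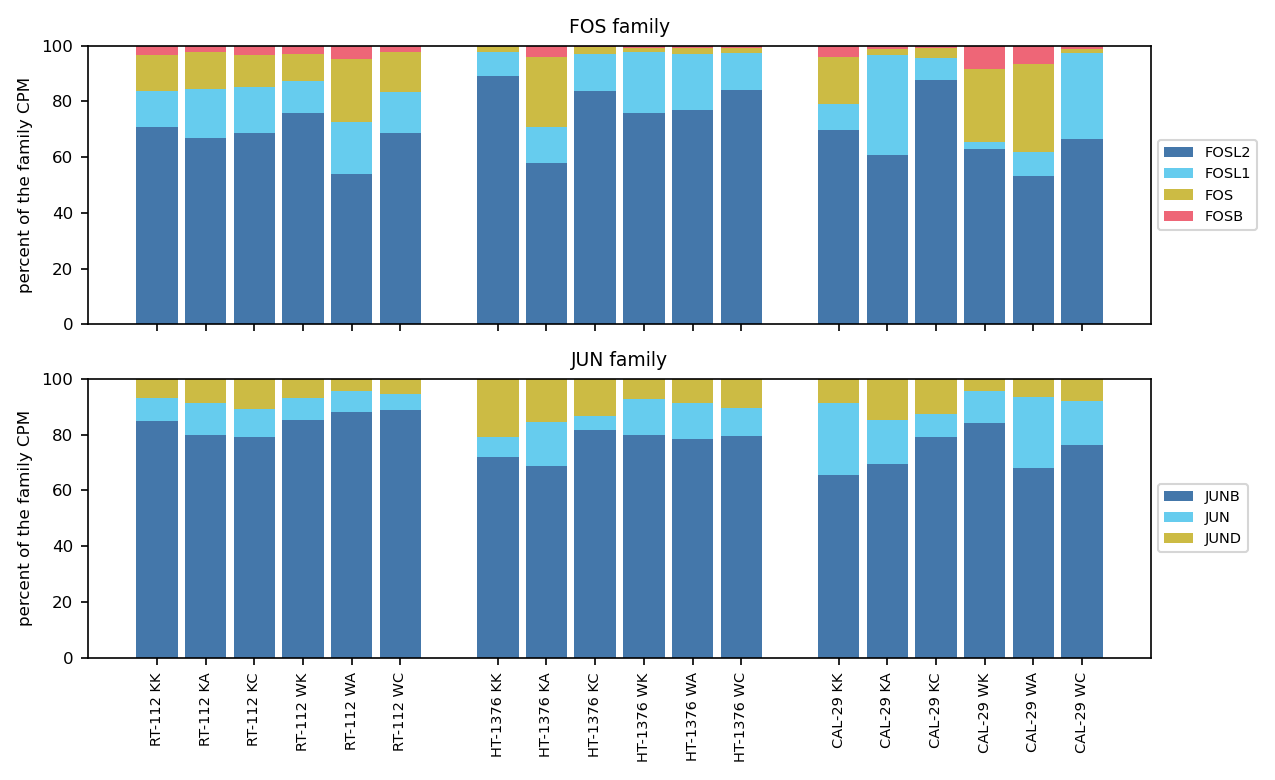
Percent of the summed CPM of the FOS family (upper panel) and of the JUN family (lower panel) taken by each member in the 18 libraries. FOSL2 holds between 53.3% and 89.1% of the FOS family and JUNB between 65.5% and 88.8% of the JUN family over all libraries used.

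The WWOX question was asked in pairs of libraries of the same line and the same second transduction, WK with KK, WA with KA and WC with KC. Without the library labelled CAL-29 KC there were 8 pairs. JUNB and FOSL2 were higher in the W library in 8 of 8 pairs, JUN and EGR1 in 7 of 8, and ATF3 was lower in 7 of 8. The smallest fall of ATF3 was 0.994-fold, in RT-112 WK with KK. Of all genes tested, 1.32% were higher in all 8 pairs and 0.376% were lower in all 8. The 3 W libraries of a line stem from the same WWOX transduction, so pairs of a line are not independent.

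JUNB, a JUN protein that also holds back JUN at some promoters, had 1852, 1251 and 1149.5 CPM in RT-112 KK, KA and KC. In RT-112 WK, WA and WC it had 2552, 3177 and 2856 CPM. In HT-1376 it had 1159.8, 1427 and 1711 CPM without and 2264, 2120.1 and 2251 CPM with WWOX, in the same order of the second transductions. In CAL-29 it had 912 and 1055 CPM in KK and KA, and 2305, 1514 and 1236 CPM in WK, WA and WC. Without the library labelled CAL-29 KC, the lowest W library of each line thus lay above the highest K library. This held for JUNB alone among the 10 members and for 0.261% of all genes tested. That library, at 1942 CPM, lay within the range of the CAL-29 W libraries. The pair ratios ran from 1.32 to 2.54 with a median of 1.72.

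FOSL2, the FOS protein with the broadest basal presence, had 111.8, 111.6 and 104 CPM in RT-112 KK, KA and KC and 152, 113 and 119 CPM in WK, WA and WC. In HT-1376 it had 98.1, 165 and 127 CPM, and with WWOX 179, 179 and 170 CPM. In CAL-29 it had 188 and 208 CPM in KK and KA and 306, 305 and 203 CPM in WK, WA and WC. The W and K libraries did not overlap in RT-112 and HT-1376 and overlapped in CAL-29. The smallest of the 8 ratios was 1.02 (RT-112 WA over KA) and the largest 1.82 (HT-1376 WK over KK).

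JUN, the classic partner of FOS, had 183, 179 and 143 CPM in RT-112 KK, KA and KC and 242, 264 and 188 CPM in WK, WA and WC. In HT-1376 it had 117, 326 and 104 CPM, and with WWOX 360, 352 and 292 CPM. In CAL-29 it had 359 and 239 CPM, and 314, 572 and 257 CPM in WK, WA and WC. The 2 groups did not overlap in RT-112 and overlapped in the other two lines, and the only pair with a lower W library was CAL-29 WK with KK (0.875).

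**Figure D3:**
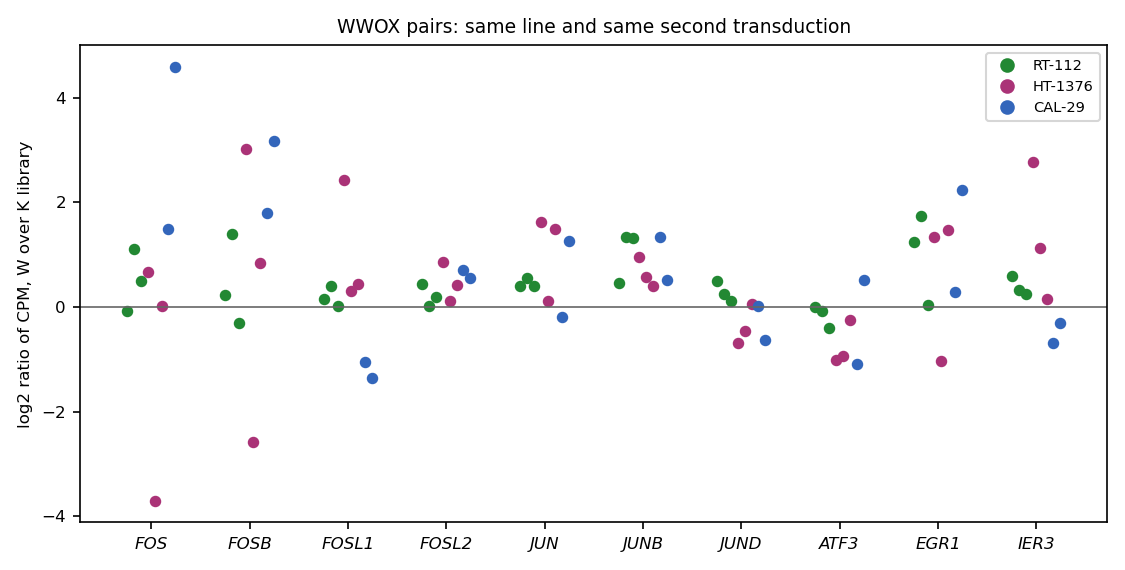
log2 ratio of CPM, W library over K library, for the 8 pairs of the same line and the same second transduction, with points coloured by line. All 8 points of JUNB and of FOSL2 lie above 0, and the points of FOS range from a ratio of 0.0766 to one of 24.0.

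In the fit with cell line, WWOX and AP-2 as terms (limma on log2(CPM + 0.5), 17 libraries, Benjamini-Hochberg adjustment over 13022 genes), no gene was called for WWOX at an adjusted p under 0.05. The smallest adjusted p of any gene was 0.134, and 1598 genes had an unadjusted p under 0.05. Of the members, 3 did so, all higher: JUNB, JUN and FOSL2, beside 5.19% of all genes with such a p and a higher level. The log2FC was 0.82 for JUNB (SE 0.16, adjusted p = 0.167), 0.68 for JUN (SE 0.19, adjusted p = 0.254) and 0.38 for FOSL2 (SE 0.12, adjusted p = 0.296), all from limma. The zinc finger factor EGR1 had a log2FC of 0.79 (SE 0.39), FOSB 0.63 (SE 0.50) and ATF3 -0.56 (SE 0.28), with limma adjusted p of 0.415, 0.601 and 0.424. The members' median log2FC was 0.46, beside -0.08 over all genes.

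The call changed with the tool. DESeq2 on the recovered reads called all of JUNB, JUN and FOSL2 for WWOX (adjusted p = 0.000421, 0.0133 and 0.0339) and 1.31% of all genes as higher. limma-voom called JUNB (adjusted p = 0.0385) and 0.376% of all genes as higher, and edgeR's quasi-likelihood test called 16 genes and none of the members. Over all 14 settings the JUNB log2FC stayed between 0.69 and 0.95, that of JUN between 0.45 and 0.83 and that of FOSL2 between 0.34 and 0.49. Without the term for cell line the limma adjusted p was 0.9999 for all of them. Every one of these fits counts each library as independent, although the W libraries of a line share the same WWOX transduction. The p-values thus measure the spread between libraries and not between transductions.

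The WWOX log2FC of FOS was 0.50 for RT-112, -1.001 for HT-1376 and 2.99 for CAL-29. FOSL1 (0.19, 1.03 and -1.18) and IER3 (0.39, 1.35 and -0.49) also had values of both signs, while those of FOSB were above 0 in each line (0.41, 0.02 and 2.39). FOS had 45.2 and 7.52 CPM in CAL-29 KK and KA, against 127, 181 and 4.05 CPM in WK, WA and WC. In HT-1376 it had 2.17, 70.9 and 3.76 CPM in KK, KA and KC and 3.44, 5.43 and 3.83 CPM in WK, WA and WC, so the highest library was a K variant there and a W variant in CAL-29. FOSB had 0.26, 12.1 and 0.85 CPM in HT-1376 KK, KA and KC against 2.1, 2.0 and 1.5 CPM with WWOX. IER3, an anti-apoptotic immediate early gene, had 232, 566 and 798 CPM in HT-1376 KK, KA and KC and 1573, 1238 and 889 CPM in WK, WA and WC. In CAL-29 it had 156 and 219 CPM in KK and KA and 97.2, 177 and 227 CPM in the W variants.

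FOSL1 had a like pattern. In HT-1376 it had 9.54, 37.6 and 20.1 CPM in KK, KA and KC and 51.5, 46.1 and 27.3 CPM in WK, WA and WC, higher in each pair. In CAL-29 it had 24.7 and 122 CPM in KK and KA and 12.0, 47.9 and 94.0 CPM in WK, WA and WC, lower in both pairs. The difference of the WWOX effect between lines was tested in a fit with a WWOX term for each line. There too the W libraries of a line share the same WWOX transduction and are counted as independent. No member was called, for RT-112 against HT-1376 (1.35% of genes called), HT-1376 against CAL-29 (4.65%) or RT-112 against CAL-29 (0.0768%). The nearest were FOSL1 (difference in log2FC 2.21, SE 0.56, limma adjusted p = 0.0582), FOS (-3.99, SE 1.22, limma adjusted p = 0.0901) and IER3 (1.84, SE 0.61, limma adjusted p = 0.11), all in HT-1376 against CAL-29. With TMM scaling FOSL1 passed (2.45, limma adjusted p = 0.0354), as did 6.14% of all genes. limma-voom called 2 members, FOSL1 and FOS, beside 4.72% of all genes, and DESeq2 called 2, FOSL1 and IER3, beside 9.22%. Leaving out the libraries with blank virus in the second transduction also gave 2 calls, FOSL1 (1.71, limma adjusted p = 0.032) and FOS (-6.28, limma adjusted p = 0.0361), but 18.2% of all genes were called in that fit.

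Each variant was next set against KK with the lines as replicates, as in the study's design. All 5 comparisons share the 3 KK libraries, so they are not independent of each other. No gene was called in any of them (limma, smallest adjusted p 0.9998), and DESeq2 called 1 to 9 genes and no member, so the members are described by how often the 3 lines moved the same way. In WK/KK, 5 of 10 members had the same direction in all 3 lines beside 25.6% of all genes. JUNB was higher by a log2FC of 0.92 (SE 0.38), FOSL2 by 0.67 (SE 0.42), FOSB by 1.25 (SE 1.18) and EGR1 by 0.89 (SE 2.08). ATF3 was lower in HT-1376 (-0.98) and CAL-29 (-1.06) and all but unchanged in RT-112 (-0.0081), with a mean of -0.68 (SE 0.95). JUNB alone had an unadjusted p under 0.05 (0.0284), beside 0.292% of all genes.

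In WA/KK, where both WWOX and AP-2α were transduced, 8 of 10 members were higher in all 3 lines, beside 12.9% of all genes higher and 22.7% in either direction. The exceptions were JUND (mean -0.05) and ATF3 (-0.05). EGR1 had the largest mean log2FC (1.68, SE 2.08), with 1.22 for RT-112, 2.21 for HT-1376 and 1.61 for CAL-29. FOSB (1.45, SE 1.18), FOS (1.44, SE 1.44), FOSL1 (1.35, SE 0.63), IER3 (1.10, SE 1.06), JUN (0.93, SE 0.42), JUNB (0.79, SE 0.38) and FOSL2 (0.53, SE 0.42) followed. In RT-112 FOSL2 was nearly unchanged (0.02). FOSL1 and JUN had an unadjusted p under 0.05 (0.0492 and 0.0429), beside 0.284% of all genes. The median log2FC of the members was 1.01, beside 0.01 over all genes.

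KA/KK, AP-2α without WWOX, had 2 of 10 members with the same direction in all 3 lines beside 21% of all genes. FOSL1 was higher by a log2FC of 0.50 for RT-112, 1.92 for HT-1376 and 2.28 for CAL-29 (mean 1.57, SE 0.63, unadjusted p = 0.0254), beside 0.0538% of all genes at an unadjusted p under 0.05. IER3 had a mean of 0.71 (SE 1.06). In the same comparison FOS had 4.74 in HT-1376 and -2.51 in CAL-29. KC/KK had 2 of 10, IER3 higher (1.11, SE 1.06) and JUN lower (-0.46, SE 0.42), beside 16% of all genes. No member of KC/KK had an unadjusted p under 0.05 (0.0845% of all genes). The CAL-29 value of KC/KK comes from the library that stood apart, and over the other two lines the means were 1.00 for IER3 and -0.26 for JUN.

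WC/KK had 5 of 10 with the same direction in all 3 lines beside 29.9% of all genes. FOSL1 (1.23, SE 0.63), IER3 (0.98, SE 1.06), JUNB (0.67, SE 0.38) and FOSL2 (0.33, SE 0.42) were higher, and ATF3 lower (-1.33, SE 0.95). The ATF3 mean rested on CAL-29, where ATF3 fell from 37.7 to 3.99 CPM, a log2FC of -3.09, against -0.02 in RT-112 and -0.88 in HT-1376. No member had an unadjusted p under 0.05, beside 0.645% of all genes. The median of all genes was itself -0.25 in WC/KK and moved with the scaling of the libraries.

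With the cell line as a block, which pairs the libraries of a line, still no member was called. The count of members with an unadjusted p under 0.05 was then 2, 1, 1, 6 and 1 for WK, KA, KC, WA and WC, beside 3.89%, 0.484%, 4.22%, 1.6% and 10.7% of all genes. Without the library labelled CAL-29 KC it was 2, 1, 0, 6 and 3 in the same order, beside 5.72%, 0.883%, 1.17%, 2.81% and 14% of all genes. With edgeR and the block it was 2, 1, 0, 3 and 3, beside 5.61%, 0.753%, 6.11%, 2.02% and 8.52%.

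For the AP-2 factors the libraries were paired within a line and a first transduction, 6 pairs for AP-2α and 5 for AP-2γ. FOSL1 was higher in 5 of 6 AP-2α pairs (0.896 to 4.95-fold, median 2.81), with a log2FC of 1.21 (SE 0.40, unadjusted p = 0.00844, limma adjusted p = 0.9999). It was the only member of 10 with an unadjusted p under 0.05 for AP-2α, beside 1.53% of all genes. JUN, ATF3 and IER3 had mean log2FC above 0 in each line, 0.30 (SE 0.22), 0.37 (SE 0.33) and 0.46 (SE 0.31). By pairs, JUN was higher in 3 and lower in 3 of the 6 (median ratio 1.03), while ATF3 and IER3 were higher in 5. For AP-2γ, JUN was lower in 5 of 5 pairs (0.777 to 0.889-fold), as were 3.29% of all genes, with a log2FC of -0.41 (SE 0.24, limma adjusted p = 0.9994). FOSL1 and IER3 had mean log2FC above 0 in each line for AP-2γ (0.71, SE 0.43, and 0.36, SE 0.33). They were higher in 4 of 5 and 3 of 5 pairs. FOS had the largest AP-2γ value in size (-0.95, SE 0.87), which came from CAL-29 WC and was 0.22 without CAL-29. No member had an unadjusted p under 0.05 for AP-2γ, beside 2.63% of all genes.

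The lines were compared next, with 8100, 7919 and 9433 genes called for RT-112 against HT-1376, HT-1376 against CAL-29 and RT-112 against CAL-29. The libraries of a line are variants of that line and not independent replicates of it, so the p-values measure the spread between these libraries. EGR1 ran from 1.68 to 5.59 CPM in RT-112 (median 5.05, n = 6), from 11.5 to 152 CPM in HT-1376 (median 35.7, n = 6) and from 115 to 545 CPM in CAL-29 (median 179, n = 5), with 95.2 CPM in the library labelled CAL-29 KC. RT-112 did not overlap with either of the others. The log2FC was -3.14 (SE 0.46) for RT-112 against HT-1376 and -5.39 (SE 0.49) against CAL-29, and -2.25 (SE 0.49) for HT-1376 against CAL-29. The limma adjusted p-values were 2.54e-05, 1.79e-07 and 0.00107. RT-112 was thus the line with the least EGR1 in every variant.

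IER3 was high in HT-1376 alone. It ran from 106 to 173 CPM in RT-112, from 232 to 1573 CPM in HT-1376 and from 97.2 to 227 CPM in CAL-29. The library labelled CAL-29 KC had 391 CPM, within the range of HT-1376. Without that library HT-1376 did not overlap with the other lines, with a log2FC of -2.43 (SE 0.31, limma adjusted p = 6.07e-06) for RT-112 against it and 2.20 (SE 0.33, limma adjusted p = 4.03e-05) for it against CAL-29. RT-112 and CAL-29 did not differ beyond their spread (-0.23, SE 0.33). ATF3 was low in RT-112, 4.82 to 6.41 CPM, against 10.9 to 32.9 CPM in HT-1376 and 3.99 to 38.8 CPM in CAL-29, with 52.8 CPM in the library labelled CAL-29 KC. Its log2FC was -1.57 (SE 0.33) for RT-112 against HT-1376 and -1.74 (SE 0.35) against CAL-29, limma adjusted p = 0.000804 and 0.000407, and HT-1376 and CAL-29 did not differ beyond their spread (-0.18, SE 0.35).

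Among the JUN genes, JUND had 134 to 206 CPM in RT-112, 208 to 337 CPM in HT-1376 and 121 to 224 CPM in CAL-29, with 308 CPM in the library labelled CAL-29 KC. HT-1376 was above CAL-29 (log2FC 0.92, SE 0.18, limma adjusted p = 0.000546) and above RT-112 without overlap (-0.77 for RT-112 against it, SE 0.17, limma adjusted p = 0.00119). With TMM scaling the latter was -0.41 and not called (limma adjusted p = 0.0955), and JUND was higher in RT-112 than in CAL-29 (0.15 on the CPM scale and 0.89 with TMM, limma adjusted p = 0.482 and 0.00175). JUNB was lowest in CAL-29, by 0.68 (SE 0.19) against RT-112 and by 0.51 (SE 0.19) against HT-1376, limma adjusted p = 0.00533 and 0.0329. RT-112 and HT-1376 differed by 0.17 (SE 0.18, limma adjusted p = 0.435), and by 0.54 with TMM, a call (limma adjusted p = 0.0467). The JUNB call for HT-1376 against CAL-29 was lost when the libraries of KK, KA, KC, WA or WC were left out (0.40 to 0.54, limma adjusted p from 0.057 to 0.134). With the library labelled CAL-29 KC put in, both JUNB calls were lost (limma adjusted p = 0.231 and 0.0609). JUN was lower in RT-112 than in CAL-29 (-0.61, SE 0.24, limma adjusted p = 0.0285), with -0.23 (SE 0.22) against HT-1376 and -0.38 (SE 0.24) for HT-1376 against CAL-29, and the call was lost without the libraries of KK, WA or WC (limma adjusted p from 0.0548 to 0.141).

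Among the FOS genes, FOSL2 rose in the order RT-112, HT-1376 and CAL-29 on the deposited CPM. With TMM scaling none of the steps was called (limma adjusted p = 0.912, 0.232 and 0.259, in the order of the comparisons below). On the deposited CPM FOSL2 was as follows. It had 104 to 152, 98.1 to 179 and 188 to 306 CPM, with a log2FC of -0.34 (SE 0.14, limma adjusted p = 0.0456), -0.60 (SE 0.15, limma adjusted p = 0.0032) and -0.94 (SE 0.15, limma adjusted p = 4.98e-05) for RT-112 against HT-1376, HT-1376 against CAL-29 and RT-112 against CAL-29. FOS was lowest in HT-1376 by its median, 3.79 CPM, against 21.4 CPM in RT-112 and 45.2 CPM in CAL-29. It was lower there than in CAL-29 (-2.11, SE 0.87, limma adjusted p = 0.0454), and RT-112 against HT-1376 gave 1.88 (SE 0.82, limma adjusted p = 0.0556). Without the KA libraries the latter was 2.59 (limma adjusted p = 0.00384), and the FOS call in HT-1376 against CAL-29 was lost without those of KK, KC, WK or WA (-2.19 to -1.44, limma adjusted p from 0.0599 to 0.224). With TMM the 2 FOS values were 2.25 for RT-112 against HT-1376, a call, and -1.75 for HT-1376 against CAL-29, not called (limma adjusted p = 0.0164 and 0.0703). FOSB was likewise lower in HT-1376 than in CAL-29 (-2.31, SE 0.62, limma adjusted p = 0.00478), with 1.35 (SE 0.58, limma adjusted p = 0.0546) for RT-112 against HT-1376 and -0.95 (SE 0.62) against CAL-29. Without the KA libraries these were 1.92 and -1.22, and both passed (limma adjusted p = 0.00294 and 0.0392). With TMM they were 1.69 and -0.26, and the first passed (limma adjusted p = 0.0109). FOSL1 did not pass in any of the 3 comparisons (-0.08, -0.64 and -0.71, SE 0.40, 0.43 and 0.43), and passed in the latter 2 without the WK libraries (-1.29 and -1.15, limma adjusted p = 0.00549 and 0.00702), and FOS did not for RT-112 against CAL-29 (-0.23, SE 0.87).

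Counted over the 10 members on the deposited CPM, 5 were called lower in RT-112 than in HT-1376 beside 42.6% of all genes, and none higher beside 19.6%. In HT-1376 against CAL-29, 3 were called higher beside 18.3% and 4 lower beside 42.5%. In RT-112 against CAL-29, 1 was called higher beside 15.9% and 4 lower beside 56.5%. Libraries did not overlap for 4, 2 and 2 members in the 3 comparisons, beside 44.2%, 31.6% and 54.5% of all genes. With TMM scaling, 3 members were called higher and 3 lower for RT-112 against HT-1376, beside 28.3% and 31.2% of all genes. It was 3 and 2 for HT-1376 against CAL-29 (26.9% and 30%), and 2 and 2 for RT-112 against CAL-29 (31.5% and 37.9%). The split of the members between higher and lower thus moved with the scaling, and nothing is read from these counts about the 10 genes as a group.

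The median of all genes was not at 0 between the lines, -0.43 for RT-112 against HT-1376, -0.44 for HT-1376 against CAL-29 and -0.82 for RT-112 against CAL-29. TMM scaling brought these medians to -0.09, -0.09 and -0.15. It also changed the split of all calls from 2552 higher and 5548 lower to 3691 and 4058 for RT-112 against HT-1376, from 2383 and 5536 to 3509 and 3901 for HT-1376 against CAL-29, and from 2074 and 7359 to 4106 and 4939 for RT-112 against CAL-29. Under 5 scalings and tools (CPM, TMM, limma-voom, edgeR and DESeq2) the calls that all 5 made in the same direction were ATF3, EGR1 and IER3, all lower, for RT-112 against HT-1376. For HT-1376 against CAL-29 they were FOSB and EGR1 lower and JUNB, JUND and IER3 higher. For RT-112 against CAL-29 they were ATF3 and EGR1 lower and JUNB higher. Of these, JUNB for HT-1376 against CAL-29 rests on the libraries named above. The FOSL2 order of the lines did not keep its calls, and the smallest step, RT-112 against HT-1376, was also lost without any 1 of the variants KA, KC, WK, WA and WC (limma adjusted p from 0.0589 to 0.137). With TMM its log2FC was 0.02, -0.23 and -0.21. JUN, RT-112 against CAL-29, turned from -0.61 to 0.13.

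**Figure D4:**
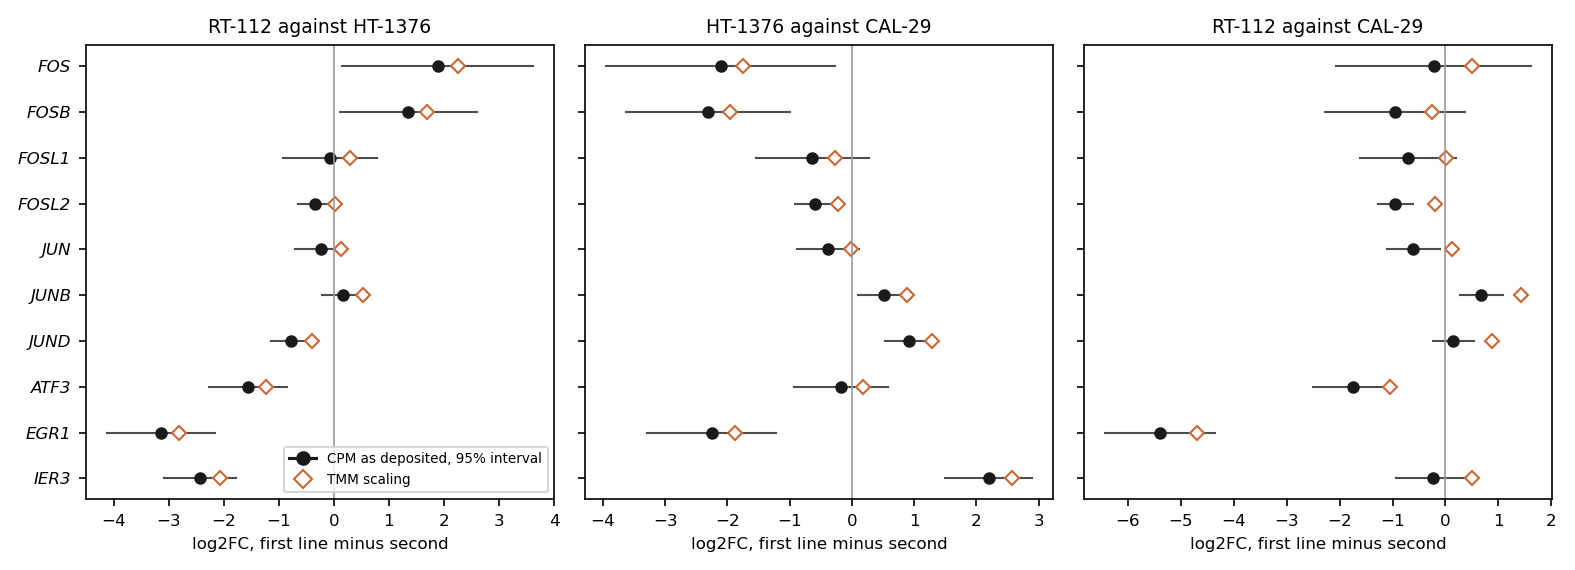
log2FC of the 10 members between the cell lines, the first line named minus the second, with the deposited CPM (filled circles with 95% intervals from limma) and with TMM scaling (open diamonds). EGR1 is at -5.39 on the CPM scale and -4.69 with TMM for RT-112 against CAL-29, while FOSL2 and JUN move to near 0 with TMM.

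The spread within a line ranged widely over the members. FOS had an SD of 1.66 on the log2 scale around its line means over 17 libraries, larger than 99.8% of all genes tested, whose median was 0.43. FOSB (1.19), EGR1 (1.02), FOSL1 (0.92) and ATF3 (0.78) were also above the median gene, as were IER3 (0.66), JUN (0.59) and JUNB (0.52). FOSL2 (0.30) and JUND (0.29) were below it. For FOS, FOSB, FOSL1, JUND and ATF3 the spread was smallest in RT-112 and largest in CAL-29, for FOS 0.51 there, 1.72 for HT-1376 and 2.37 for the CAL-29 libraries. The median gene had 0.27, 0.39 and 0.49.

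Deviations from the line means were set against each other over the 17 libraries, as a description, since libraries of a line share their culture history. FOS and FOSB moved together most closely (Pearson r = 0.944, Spearman rho = 0.743). FOSB and EGR1 had r = 0.805, JUN and EGR1 0.791, FOSL2 and JUN 0.763 and FOS and EGR1 0.72. FOSL1 and IER3 had r = 0.782 with each other and -0.288 and -0.215 with FOS. With JUN they had 0.324 and 0.484, IER3 had 0.428 with FOSL2, and FOS had 0.63 with ATF3. JUNB was closest to FOSL2 (r = 0.679) and JUND had r from -0.283 to 0.296 with the other members. HT-1376 KA and CAL-29 WA were high for FOS, FOSB and EGR1 at once, at 70.9, 12.1 and 152 CPM and at 181, 38.8 and 545 CPM, and these libraries weigh on the correlations.

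**Figure D5:**
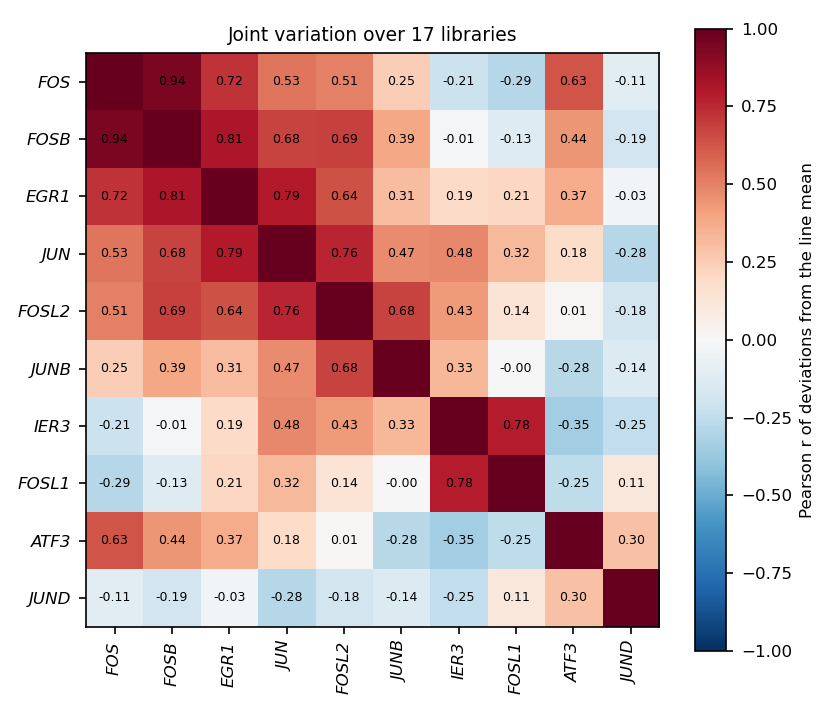
Pearson r between members of the deviations of log2(CPM + 0.5) from the cell line mean, over 17 libraries. FOS, FOSB, EGR1, JUN and FOSL2 have positive values with each other, from 0.505 to 0.944, and FOSL1 with IER3 has 0.782. The groups are not cleanly set apart, since FOS with ATF3 has 0.63 and IER3 has 0.484 with JUN and 0.428 with FOSL2.

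Over all genes tested, the pattern of FOS was most like that of FOSB (r = 0.944), the prostaglandin receptor gene PTGER4 (0.926) and TAF1C (0.896). That of JUN was most like C1orf116 (0.855), MPZL3 (0.85) and the cell cycle kinase gene CDK6 (0.844). That of FOSL1 was most like MVD, an enzyme of sterol synthesis (0.914), PRELID1 (0.896) and IER3IP1 (0.887). These are the highest of 13022 values each over 17 libraries.

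Other genes of the pathway were followed as lists. For WWOX, limma called none of 9 other AP-1 basic leucine zipper genes, 21 other immediate early genes, 10 delayed genes of the ERK response, 19 upstream kinases and SRF factors or 19 AP-1 target genes. At an unadjusted p under 0.05, where 5.19% of all genes were higher and 7.08% lower, 6 of the 21 other immediate early genes were higher and none lower, EGR2 (log2FC 1.038, SE 0.274), DUSP2 (1.31), NR4A1 (0.77), IER5 (0.42), ZFP36 (0.41) and NR4A2 (0.39). So were 6 of the 19 target genes, among them LIF (1.45, SE 0.47), MMP9 (2.001, SE 0.73), SPRR1B (2.28, SE 0.93), CXCL8 (1.26, SE 0.46), MMP10 (0.80) and the urokinase gene PLAU (0.71). The others were MAF (0.86) among the zipper genes, SPRY2 (0.75) and DUSP5 (0.47) higher and ETV5 (-0.60) lower among the delayed genes, and ELK3 (0.52) among the upstream genes. No gene of these lists was higher in all 8 WWOX pairs or lower in all 8, beside 1.32% and 0.376% of all genes. EGR2, NR4A1 and MMP9 reached 5 CPM only in W libraries, with at most 2.58, 3.53 and 2.48 CPM in a K library. They passed the filter only through the group where they were higher. The list counts and medians given here are thus partly set by the filter, and nothing is read from them. In RT-112, EGR2 stayed at or below 0.11 CPM, DUSP2 at or below 0.53 CPM, MMP9 at or below 0.49 CPM and MMP10 at or below 0.5 CPM. CXCL8 and SPRR1B were lower in RT-112 WA and WC than in KA and KC, and higher in WK than in KK. LIF and PLAU were higher in each RT-112 pair. The rise of the named target genes was thus not shared by all lines. The medians were 0.17, 0.24, -0.02, 0.05 and 0.58 in the order of the lists above, beside -0.08 over all genes. Of the epithelial markers KRT19 (1.29) was higher and KRT18 (-0.40) lower at an unadjusted p under 0.05, and COL1A2 (1.15) was higher among 3 tested markers of other cell types. COL1A2 also passed the filter only through W libraries, with at most 4.37 CPM in a K library. The part of these markers in the results was not tested.

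The same lists were compared between the lines. Over all genes, 19.6% were called higher and 42.6% lower for RT-112 against HT-1376 (28.3% and 31.2% with TMM), 18.3% and 42.5% for HT-1376 against CAL-29 (26.9% and 30% with TMM), and 15.9% and 56.5% for RT-112 against CAL-29 (31.5% and 37.9% with TMM). The list counts stand beside these shares and were not tested against them. In RT-112 against HT-1376, 3 of 21 other immediate early genes were called higher and 10 lower (6 and 9 with TMM), with the phosphatase gene DUSP2 at -4.29, KLF4 at -3.54 and BTG2 at 1.00. In HT-1376 against CAL-29 it was 7 higher and 8 lower (9 and 5 with TMM), with EGR3 at -2.37 and DUSP1 at 1.75, and in RT-112 against CAL-29 it was 4 and 12 (6 and 6 with TMM). Of the 19 target genes, 3 were higher and 10 lower in RT-112 than in HT-1376 (3 and 6 with TMM), with the growth factor gene AREG at -5.05 and PLAUR at 1.70. For HT-1376 against CAL-29 it was 3 and 4 (5 and 3 with TMM), with MMP13 at -3.61 and IVL at 2.21, and for RT-112 against CAL-29 it was 2 and 8 (3 and 6 with TMM).

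Of the 9 zipper genes, 4 were higher and 2 lower in RT-112 than in HT-1376 (5 and 1 with TMM), led by BATF, a JUN partner of lymphocytes, at 6.79 and MAF at 2.34. It was 1 and 6 for HT-1376 against CAL-29 (1 and 5 with TMM), with BATF at -6.37, and 0 and 3 for RT-112 against CAL-29 (4 and 3 with TMM), with ATF2 at -2.68. Of the 10 delayed genes, 1 was higher and 5 lower in RT-112 than in HT-1376 (4 and 3 with TMM), with ETV4 at 3.56 and DUSP4 at -2.59. It was 3 and 1 for HT-1376 against CAL-29 (7 and 1 with TMM) and 3 and 3 for RT-112 against CAL-29 (4 and 2 with TMM). Of the 19 upstream genes it was 2 and 5, 4 and 7, and 5 and 11 in the 3 comparisons (4 and 2, 6 and 4, and 8 and 7 with TMM), with the JNK gene MAPK8 at -1.75 in HT-1376 and -2.51 in RT-112 against CAL-29. All of these calls are limma adjusted p under 0.05 over 13022 genes.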

How the data were processed

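CAGE libraries of 18 cell line variants were sequenced by the authors as 75 nt single-end reads. Tags were mapped to hg38 with BWA and, for unmapped reads, HISAT2 2.0.5, and clustered by the authors with a modified Paraclu. The authors deposited CPM per gene (Ensembl IDs). The annotation was not given in the sources used here. Each library was given the step in CPM that 1 read is worth, and 99.85% to 99.97% of its values above 0 lay on whole steps within the rounding of the file (2 decimals), so reads were recovered for the count tools. The deposited CPM summed to 935917 to 947110 per library. RefSeq promoters are those of GRCh38.p14.

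The filter kept a gene that reached 5 CPM in any library. log2(CPM + 0.5) was fitted with limma 3.58.1, so fold changes of low genes are understated. Variants were compared with KK over the lines (18 libraries). WWOX, AP-2α, AP-2γ and the lines were compared in a fit with all as terms (17 libraries, without the library labelled CAL-29 KC), and line-specific WWOX effects in a further fit. An adjusted p (Benjamini-Hochberg) under 0.05 was a call. The replicate number of a variant is the cell line, so it pairs the libraries by design, and libraries of a line deviated together (r of 0.742 to 0.915 for RT-112, 0.588 to 0.896 for HT-1376, and 0.0363 to 0.881 for CAL-29). With 1 culture per line and variant, p-values measure the spread between these libraries. Alternatives were edgeR 4.0.16, DESeq2 1.42.0, limma-voom, TMM, other pseudocounts (0.05 and 2 CPM) and filters, the replicate block and leaving out libraries. Scripts were tested on simulated data. Libraries of a line differed by far more than sampling noise, so none was counted as a duplicate.

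The members and gene lists were chosen with earlier results of these data known. Named were all members, with fold changes where every line moved the same way, where a call was made or where the change was the largest in size, every member for the lines, the most changed called genes of each list, and the 3 genes most like FOS, JUN and FOSL1. Genes named at an unadjusted p were chosen after their values were seen.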

Additional observations from a re-analysis of the deposited data

Results flagged for a closer look

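In 30 groups of 6 libraries labelled with the same cell line, 3 had a highest library that lay apart from the others by Dixon's criterion on log2(CPM + 0.5) (critical value 0.625), and chance flags about 1 in 20 groups. FOS was at 70.9 CPM in HT-1376 KA, where the gap to the next library took up 0.757 of the range, and the other HT-1376 libraries had 2.17 to 5.43 CPM. FOS was at 47.5 CPM in RT-112 WA (0.659 of the range), against at most 24.5 CPM in the other RT-112 libraries. FOSL2 was at 152 CPM in RT-112 WK (0.659 of the range), against at most 119 CPM in the other RT-112 libraries. No member's WWOX effect was called as different between lines by limma on the deposited CPM.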

How the results depend on the processing

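Comparisons with KK gave 0 called members under every setting run, the replicate block included, alone and without the library labelled CAL-29 KC (a combination chosen after seeing the data). For WWOX the count of called members was 0 by limma on CPM, 1 with limma-voom and 3 with DESeq2, of 70 and 225 genes called. For the WWOX effect that differs in HT-1376 against CAL-29 it was 1 with TMM, 2 with limma-voom, 2 with DESeq2, and 0 to 2 when the libraries of each second transduction were left out, in fits that called 799, 614, 1200 and 97 to 2372 of all genes. For the lines the total of called members stayed within 1.5 times, but with TMM its split into higher and lower went from 0 and 5 to 3 and 3 for RT-112 against HT-1376, from 3 and 4 to 3 and 2 for HT-1376 against CAL-29, and from 1 and 4 to 2 and 2 for RT-112 against CAL-29. The share of FOSL2 in the FOS family of CAL-29 was 72.9% from geometric means. All other shares and the within-line spreads moved by less than 1 SD or 1.5 times. Directions turned only for members that limma did not call in the comparison, apart from FOSL2 in RT-112 against HT-1376 and JUN in RT-112 against CAL-29. In RT-112 against HT-1376, TMM, limma-voom, edgeR and DESeq2 gave 0.29, 0.27, 0.15 and 0.17 for FOSL1, 0.022, 0.026, 0.019 and 0.055 for FOSL2 and 0.14, 0.16, 0.082 and 0.12 for JUN. In HT-1376 against CAL-29 they gave 0.18, 0.13, 0.061 and 0.11 for ATF3, and edgeR and DESeq2 0.028 and 0.081 for JUN. In RT-112 against CAL-29 they gave 0.13, 0.13, 0.11 and 0.20 for JUN and 0.51, 0.49, 0.41 and 0.48 for IER3, while TMM and limma-voom gave 0.50 and 0.46 for FOS and TMM 0.013 for FOSL1. JUND there was -0.019 with the library labelled CAL-29 KC put in. Leaving out a variant gave -0.30 to 0.14 for FOSL1 in RT-112 against HT-1376, -0.65 to 0.027 for ATF3 in HT-1376 against CAL-29 and -1.01 to 0.35 for FOS in RT-112 against CAL-29. Leaving out a line gave -1.82 to 0.22 for FOS and AP-2γ. The cause was not tested, except that TMM moves every gene of a line comparison by nearly the same amount. With 1 library per line and variant, culture and variant cannot be told apart.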
